A study of Homo sapiens with 5 samples.

Results

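The genes described here are 34 genes reported as induced by EWSR1-FLI1, the fusion protein of Ewing sarcoma. The list was given gene by gene, by a rule that names no signal of these arrays, although it was drawn up with earlier results of them known. Every probe set annotated to a listed gene was taken, including probe sets shared with another gene. Probe sets were found for 32 of the 34 genes, 76 of their own and 1 listed for ID2 together with ID2B, out of 19775 genes with a probe set of their own. NR0B1 and EGR2 were not analysed here. In the scrambled control arrays 30 of the 32 genes were bright. None of them passed the threshold of the test across all genes for either arm of miR-483, and the sizes, directions and array-to-array spread of their differences are given below by the genes' roles.

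Cells of the human Ewing sarcoma line MHH-ES-1, an established line, received by lipofectamine transfection a synthetic microRNA mimic at 50 nM, and RNA was profiled at 48 h. Such a mimic is a duplex that raises a given microRNA in the cell. The first group, with 2 arrays, had the mimic of miR-483-5p, and the second, with 1 array, that of miR-483-3p, the other arm of the same hairpin. The control, with 2 arrays, had a mimic of scrambled sequence, so all 5 arrays are of transfected cells of a single line. The second array of a pair is called a repeat in the labels, with no word on whether a separate culture was used, and p-values therefore cover only array-to-array spread, which may be technical. No array here is of cells with the fusion depleted, so induction of the genes by the fusion was not measured.

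EWSR1-FLI1 joins the activating part of the RNA-binding protein EWSR1 to the DNA-binding ETS domain of FLI1. ETS domains bind DNA at a GGAA core, and the fusion is known to act at runs of GGAA repeats, often far from the genes they control, as well as at single sites. The genes it induces in Ewing sarcoma include transcription factors of neural and limb development, signalling enzymes, and proteins of the cell surface that serve as diagnostic or therapeutic markers.

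Signals are linear probe set intensities, deposited after scaling of each array to a trimmed mean of 150.0. Array medians were 39.2 and 44.9 with miR-483-5p and 41.9 with miR-483-3p, against 44.4 and 43.2 in control arrays. The 3' to 5' ratio of a gene's signal reflects RNA quality. For GAPDH it was 1.09 and 1.10 with miR-483-5p and 1.06 with miR-483-3p, against 1.02 and 0.996 in control arrays. For ACTB it was 1.18 and 1.07 with miR-483-5p and 1.09 with miR-483-3p, against 1.07 and 1.04 in control arrays. The ACTB ratio was highest in the first miR-483-5p array. The part of either ratio in the differences below was not tested. All 5 Ewing sarcoma markers with a probe set here (CD99, NKX2-2, FLI1, STEAP1 and CCND1) were bright in the control, and none of 10 markers of leukocytes, endothelium, epithelium or muscle was, by the rule given below. PECAM1 of endothelium lay near the line and passed it in the first control array only. It had 153.7 and 143.2 in control arrays, whose 75th percentiles were 153.5 and 150.1. PECAM1 and the epithelial keratins KRT8 and KRT18 were neither bright nor dim. The signals of the 10 markers summed to 346.6 and 357.7 with miR-483-5p and 360.6 with miR-483-3p, against 377.7 and 349.2 in control arrays, and none was at 0. In every array PECAM1 was the highest of the 10, with 132.6 and 169.5 with miR-483-5p and 147.3 with miR-483-3p. In a bulk sample, fewer cells of a type and less RNA per cell cannot be told apart.

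Since ETS domains read a GGAA core, the stretches just before the starts of 3 of the genes are shown. They are the genes with a single listed start and an unadjusted p under 0.05 between miR-483-5p and control, given further down: the limb patterning factor HOXD13, the neuropeptide Y receptor NPY1R and the Fc receptor FCGRT. Each is the 250 bases upstream of the RefSeq start in GRCh38.p14, read 5' to 3' on the gene's own strand, with GGAA and its reverse complement TTCC in capitals, which cannot overlap each other.
HOXD13, chr2:176092471-176092720, plus strand: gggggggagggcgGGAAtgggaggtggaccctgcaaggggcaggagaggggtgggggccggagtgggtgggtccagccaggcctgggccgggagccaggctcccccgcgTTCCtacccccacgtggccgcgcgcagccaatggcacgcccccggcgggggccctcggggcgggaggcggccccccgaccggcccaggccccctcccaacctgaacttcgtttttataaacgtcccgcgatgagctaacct
NPY1R, chr4:163332597-163332846, minus strand: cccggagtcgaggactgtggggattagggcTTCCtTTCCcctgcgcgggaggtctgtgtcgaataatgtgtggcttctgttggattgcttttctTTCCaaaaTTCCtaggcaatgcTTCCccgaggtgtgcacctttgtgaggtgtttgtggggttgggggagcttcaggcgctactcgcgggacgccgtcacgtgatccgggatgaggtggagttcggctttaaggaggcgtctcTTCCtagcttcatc
FCGRT, chr19:49512411-49512660, plus strand: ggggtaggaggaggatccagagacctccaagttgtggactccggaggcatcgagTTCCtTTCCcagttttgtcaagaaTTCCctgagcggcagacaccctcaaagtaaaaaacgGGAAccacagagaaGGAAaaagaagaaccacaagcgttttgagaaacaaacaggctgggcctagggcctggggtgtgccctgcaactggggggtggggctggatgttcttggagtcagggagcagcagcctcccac
The HOXD13 stretch holds 2 matches, that of NPY1R 6 and that of FCGRT 5. Over the 27 genes of the list with a probe set and a listed start, 32 of 38 upstream windows held at least 1 match (84.2%), against 92.7% of all 35116 windows of this length, and the median was 2 matches against 3. A run of at least 2 adjoining repeats (GGAAGGAA or TTCCTTCC) was present in 2 of the genes' windows (5.26%, against 3.06% of all windows), both upstream of CAV1, the scaffold protein of caveolae. The 2 CAV1 windows overlap, so the same run may be counted in both. All of the matches given here describe letters in a short window and say nothing of binding, since repeats farther away were not searched.

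Brightness was set within each array. A gene was called bright where its brightest probe set lay at or above the 75th percentile of the array's probe sets in both control arrays, and dim where every probe set lay under the 40th percentile in both. By this rule 30 of the 32 genes (93.8%) were bright, against 37.1% of all 19775 genes. The exceptions were TERT, the catalytic subunit of telomerase, and UPP1, the uridine phosphorylase of pyrimidine salvage. TERT had signals of 41.0 and 83.1 with miR-483-5p and 89.2 with miR-483-3p, against 39.5 and 51.9 in control arrays, between both lines. UPP1 had signals of 14.2 and 6.3 with miR-483-5p and 5.3 with miR-483-3p, against 6.8 and 8.4 in control arrays, and it alone was left out of the tests as too dim. The bright gene nearest the line was GLI1, the effector of Hedgehog signalling, at percentiles 77.6 and 80.4 in the control arrays, while TERT stood at 47.1 and 54.5. NKX2-2, a neural homeobox factor used as a diagnostic marker of Ewing sarcoma, stood at percentile 98.7 in both. At the 90th percentile 25 of the 32 remained bright, and 19 were bright when every probe set of a gene had to pass. The share of all genes under either of these stricter rules was not counted, so these counts have no comparison.

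**Figure D1:**
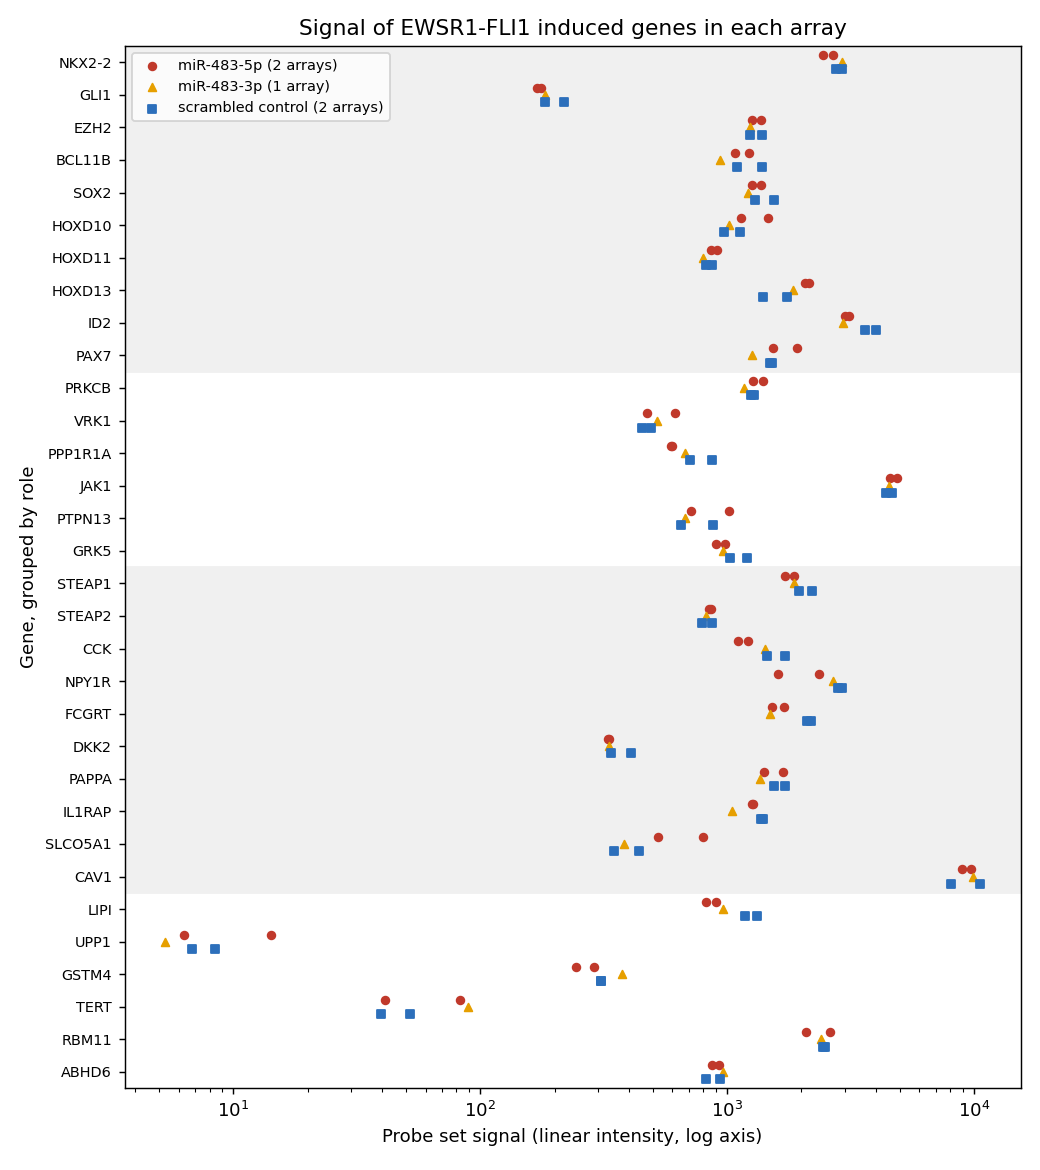
Signal of each of the 32 genes with a probe set (brightest probe set, linear intensity on a log axis) in the miR-483-5p arrays (circles), the miR-483-3p array (triangles) and the scrambled control arrays (squares), with the genes grouped by role (shaded bands). Points of most genes lie close together, UPP1 and TERT lie far to the left of the others, and the miR-483-5p circles of LIPI, CCK and FCGRT lie left of their control squares.

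Differences between groups were taken on the log2(signal + 32) scale, from the brightest probe set of each gene, and tested with limma over the 14590 genes that passed a filter on dim signals, of which 31 belong to the list. With miR-483-5p against control, 14 of the 31 genes were higher and 17 lower, with a median log2 difference of -0.083, beside -0.0085 over all genes tested. No gene of the list passed the adjusted threshold of 0.05, nor by limma did any of the 14590 genes (0%), of which 1553 had an unadjusted p under 0.05. At an unadjusted p under 0.05, 2 of the 31 were higher (6.45%, against 5.28% of all genes tested) and 5 lower (16.1%, against 5.37%). Those higher were SLCO5A1 and HOXD13, and those lower LIPI, FCGRT, CCK, NPY1R and PPP1R1A. Their count depends on single arrays, being 7 with all arrays, 5 or 3 when the first or the second miR-483-5p array was left out, and 2 or 3 when the first or the second control array was. In 4 genes the miR-483-5p arrays were both higher than either control array (12.9%, against 20.4% of all genes tested), and in 13 both were lower (41.9%, against 22.2%).

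With miR-483-3p, which has a single array, 7 of the 31 genes were higher than control and 24 lower, with a median log2 difference of -0.11, beside -0.0013 over all genes tested. Centring each array on its median changes that split to 11 higher and 20 lower. None passed the adjusted threshold, as for all genes tested (0%), of which 949 had an unadjusted p under 0.05. Unadjusted p-values under 0.05 were found for 2 genes, FCGRT and IL1RAP, both lower (6.45%, against 4.02% of all genes tested), and for none that was higher (2.48% of all genes tested). With either control array left out that count was 0. The miR-483-3p array lay above both controls for 5 genes (16.1%, against 33.4% of all genes tested) and below both for 18 (58.1%, against 35.3%). A single array has no spread of its own. Every SE and p-value given for miR-483-3p, against control or between the arms, therefore borrows the spread of the miR-483-5p and control arrays. Both mimics were set against the same 2 control arrays, so a control array that is high or low for a gene shifts both of its differences.

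The gaps between repeats are given here beside the differences between groups. A gap is between single arrays, while a group difference is between means of paired arrays. Averaging lowers array-to-array spread, so the sizes of gaps and differences are not directly comparable. The median absolute log2 difference between miR-483-5p and control was 0.176 over the 31 genes, while the median absolute log2 gap was 0.12 between the miR-483-5p arrays and 0.156 between the control arrays. Over all genes tested the same difference was 0.152 and the gaps were 0.175 and 0.157. For 16 of the 31 genes (51.6%, against 54.8% of all genes tested) the gap between the miR-483-5p arrays was larger than the group difference, among them EZH2, SOX2, PAX7, PRKCB, PTPN13 and TERT.

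**Figure D2:**
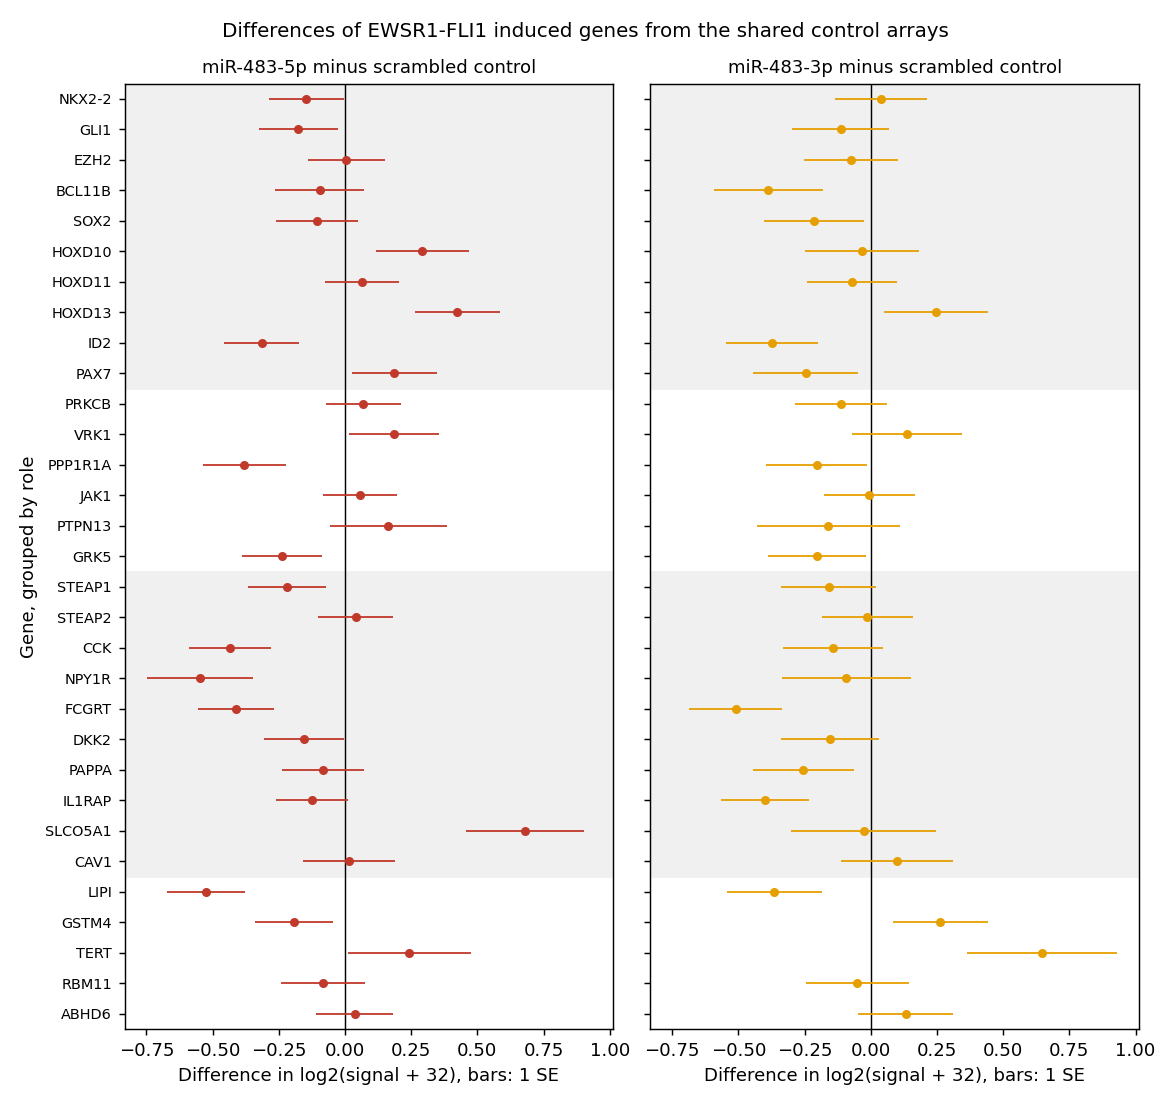
Log2 difference from the scrambled control for the 31 genes tested, miR-483-5p on the left and miR-483-3p on the right, with points for the fitted difference in log2(signal + 32) and bars of 1 standard error. Both panels share the control arrays. Many bars cross 0, and on the left SLCO5A1 lies farthest to the right and NPY1R and LIPI lie farthest to the left.

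Among the transcription factors and chromatin proteins, 5 of 10 were higher and 5 lower with miR-483-5p (median log2 difference -0.045), and 2 were higher and 8 lower with miR-483-3p (median -0.095). The posterior HOXD genes of the list, which pattern the limbs and lie in the HOXD cluster on chromosome 2, were each higher with miR-483-5p. HOXD13 had signals of 2140.4 and 2065 with miR-483-5p and 1854 with miR-483-3p, against 1392 and 1743 in control arrays. The miR-483-5p arrays lay above both controls, which themselves differed by more than the miR-483-5p arrays did. The means were 2103 ± 53.2 with miR-483-5p and 1568 ± 248 in control arrays (SD, n = 2 each), a log2 difference of 0.42 ± 0.16 (SE; limma adjusted p = 0.431), and that of miR-483-3p was 0.25 ± 0.20 (adjusted p = 0.906). HOXD10 had 1461 and 1136 with miR-483-5p and 1021 with miR-483-3p, against 1128 and 970.1 in control arrays, log2 differences of 0.29 and -0.035. Its second miR-483-5p array lay just above the first control array. HOXD11 had 858 and 910.3 with miR-483-5p and 802 with miR-483-3p, against 820.4 and 868 in control arrays, and its groups overlapped, with a log2 difference of 0.065 for miR-483-5p. In RefSeq the starts of HOXD13 and HOXD11 lie 14.6 kb apart and those of HOXD11 and HOXD10 9.5 kb apart.

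ID2, an inhibitor of basic helix-loop-helix factors, was the gene of this group with the lowest signal relative to control under miR-483-5p. It had 3006 and 3118 with miR-483-5p and 2939 with miR-483-3p, against 3637 and 4005 in control arrays. All 3 mimic arrays lay below both controls, with log2 differences of -0.32 ± 0.14 for miR-483-5p (SE; limma adjusted p = 0.494) and -0.37 ± 0.17 for miR-483-3p (adjusted p = 0.817). The other probe set of ID2 alone was lower too, at -0.30 and -0.26 on the same scale. Its miR-483-5p arrays, at 1297 and 822, overlapped the control arrays, at 1418 and 1153. The probe set listed for ID2 and ID2B together went the other way, and its signal cannot be assigned to either gene. It had 163 and 109 with miR-483-5p and 112 with miR-483-3p, against 147 and 80.0 in control arrays.

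NKX2-2 had 2682 and 2444 with miR-483-5p and 2911 with miR-483-3p, against 2751 and 2920.3 in control arrays. The miR-483-5p arrays lay below the control arrays by a log2 difference of -0.15 ± 0.14, about the size of its SE (limma adjusted p = 0.751), and the miR-483-3p array lay between the controls. GLI1 had 177 and 171 with miR-483-5p and 183 with miR-483-3p, against 183 and 219 in control arrays, a log2 difference of -0.18 for miR-483-5p. EZH2, the histone methyltransferase of Polycomb repressive complex 2, had 1367 and 1260.2 with miR-483-5p and 1240.3 with miR-483-3p, against 1379 and 1241 in control arrays. The miR-483-5p and control values of EZH2 were nearly the same, with a log2 difference of 0.0045 ± 0.14 (SE).

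BCL11B, a zinc finger factor of T cell and neuron development, had 1231 and 1075 with miR-483-5p and 934 with miR-483-3p, against 1379.5 and 1099 in control arrays, and its miR-483-3p value was the lowest, at a log2 difference of -0.39 ± 0.21 (SE; limma adjusted p = 0.855). SOX2, a factor of stem and neural progenitor cells, had 1369.5 and 1268 with miR-483-5p and 1219.6 with miR-483-3p, against 1555 and 1297 in control arrays, log2 differences of -0.11 and -0.21. The next brightest SOX2 probe set was higher instead, at 0.105 and 0.23. Its dimmer probe sets gave -0.33 and -0.034 for miR-483-5p, and 0.37 and -0.45 for miR-483-3p. PAX7, a paired box factor of neural crest and muscle precursors, had 1928 and 1535 with miR-483-5p and 1266 with miR-483-3p, against 1516 and 1499 in control arrays. For PAX7 the miR-483-5p arrays lay above and the miR-483-3p array below the controls, with log2 differences of 0.19 ± 0.16 and -0.25 ± 0.20 (SE; limma adjusted p = 0.714 and 0.906), and 0.43 ± 0.20 between the arms (adjusted p = 0.772).

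Of the kinases, phosphatases and their regulators, 4 of 6 were higher and 2 lower with miR-483-5p (median log2 difference 0.063), and 1 was higher and 5 lower with miR-483-3p (median -0.14). PPP1R1A, an inhibitor of protein phosphatase 1, had 598 and 595 with miR-483-5p and 678 with miR-483-3p, against 709.7 and 869.5 in control arrays. Its miR-483-5p arrays were close to each other and below both controls. The means were 597 ± 1.7 with miR-483-5p and 789.6 ± 113 in control arrays (SD, n = 2 each), a log2 difference of -0.38 ± 0.16 (SE; limma adjusted p = 0.456). Its second probe set was also lower, at -0.30 on the same scale. GRK5, which phosphorylates activated G protein-coupled receptors, had 979 and 898 with miR-483-5p and 962 with miR-483-3p, against 1201 and 1030.1 in control arrays, log2 differences of -0.24 and -0.20.

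The other 4 enzymes of this group overlapped between miR-483-5p and control. PRKCB, the protein kinase C beta isoform, had 1402 and 1268 with miR-483-5p and 1171 with miR-483-3p, against 1291 and 1249 in control arrays, log2 differences of 0.068 and -0.11. VRK1, a nuclear kinase of chromatin proteins, had 616 and 473 with miR-483-5p and 522 with miR-483-3p, against 490.0 and 453 in control arrays, log2 differences of 0.19 and 0.14. For VRK1 the first miR-483-5p array stood above the other 4. PTPN13, a large tyrosine phosphatase, had 1015 and 712 with miR-483-5p and 673 with miR-483-3p, against 880.4 and 649 in control arrays, log2 differences of 0.16 and -0.16, with the first array of each pair above its repeat. JAK1, the kinase of cytokine and interferon receptors, had 4895 and 4581 with miR-483-5p and 4532 with miR-483-3p, against 4422 and 4677 in control arrays, with log2 differences of 0.058 and -0.0051. That is the probe set of JAK1 with the highest signal, and its others are described with the probe sets.

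Of the surface, secreted and receptor proteins, 3 of 10 were higher and 7 lower with miR-483-5p (median log2 difference -0.14), and 1 was higher and 9 lower with miR-483-3p (median -0.15). NPY1R, a receptor of neuropeptide Y that Ewing sarcoma cells are known to express, had 2352 and 1608 with miR-483-5p and 2679.6 with miR-483-3p, against 2807 and 2913 in control arrays. It had the lowest difference from control of the 31 genes under miR-483-5p, and its second miR-483-5p array was well below the first. The means were 1979.7 ± 526 with miR-483-5p and 2860.3 ± 74.8 in control arrays (SD, n = 2 each), a log2 difference of -0.55 ± 0.20 (SE; limma adjusted p = 0.421), which ranged from -0.82 to -0.28 as each paired array was left out. CCK, the gut and brain peptide cholecystokinin, had 1221 and 1103 with miR-483-5p and 1428 with miR-483-3p, against 1722 and 1450.3 in control arrays. Its miR-483-5p arrays were the lowest of the 5, with means of 1162 ± 83.6 with miR-483-5p and 1586 ± 192 in control arrays (SD, n = 2 each) and a log2 difference of -0.43 ± 0.16 (SE; adjusted p = 0.419). With miR-483-3p the log2 difference of CCK was -0.14.

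FCGRT, the neonatal Fc receptor that recycles immunoglobulin G and albumin, had 1701 and 1518 with miR-483-5p and 1499 with miR-483-3p, against 2108 and 2191 in control arrays. All 3 mimic arrays lay below both controls, and among the 31 genes FCGRT alone had an unadjusted p under 0.05 for both mimics, against shared control arrays. The means were 1609 ± 129 with miR-483-5p and 2149 ± 58.5 in control arrays (SD, n = 2 each), a log2 difference of -0.41 ± 0.14 (SE; limma adjusted p = 0.412). For miR-483-3p the log2 difference of FCGRT was -0.51 ± 0.18 (SE; adjusted p = 0.687), the lowest of the 31 genes. IL1RAP, the co-receptor of interleukin 1 signalling, had 1269.9 and 1266 with miR-483-5p and 1043 with miR-483-3p, against 1397 and 1376 in control arrays. The miR-483-3p array was the lowest, at a log2 difference of -0.40 ± 0.17 (SE; adjusted p = 0.763), while its second probe set was at -0.059.

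SLCO5A1, a member of the organic anion transporter family, had 797 and 523 with miR-483-5p and 383 with miR-483-3p, against 439 and 348 in control arrays. It had the highest difference from control of the 31 genes under miR-483-5p, and the first miR-483-5p array stood apart from the second. The means were 660.0 ± 194 with miR-483-5p and 394 ± 64.8 in control arrays (SD, n = 2 each), a log2 difference of 0.68 ± 0.22 (SE; limma adjusted p = 0.403). Its second probe set, which had 169.5 and 157 with miR-483-5p and 148 with miR-483-3p, against 156 and 145 in control arrays, gave only 0.10 on the same scale.

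The metalloreductase STEAP1 had 1711 and 1859.9 with miR-483-5p and 1862 with miR-483-3p, against 1963 and 2207 in control arrays, with all mimic arrays below the controls and log2 differences of -0.22 and -0.16. Its relative STEAP2, whose start lies 57.3 to 59.4 kb away on chromosome 7, had 842 and 864 with miR-483-5p and 819.7 with miR-483-3p, against 867 and 791 in control arrays. STEAP2 overlapped between the groups, at a log2 difference of 0.04 for miR-483-5p. DKK2, a secreted modulator of Wnt signalling, had 334 and 328 with miR-483-5p and 331 with miR-483-3p, against 408 and 339.9 in control arrays, log2 differences of -0.16 and -0.15, and only the first control array stood clear of the rest. PAPPA, a protease that frees insulin-like growth factors from their binding proteins, had 1679 and 1411 with miR-483-5p and 1363 with miR-483-3p, against 1719 and 1550.3 in control arrays, log2 differences of -0.083 and -0.25. CAV1 had 8988 and 9718 with miR-483-5p and 9893 with miR-483-3p, against 8073 and 10565 in control arrays. The control arrays of CAV1 enclosed all mimic arrays, and its log2 difference for miR-483-5p was 0.017 ± 0.17 (SE).

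Of the enzymes and RNA-binding proteins, 2 of 5 tested were higher and 3 lower with miR-483-5p (median log2 difference -0.083), and 3 were higher and 2 lower with miR-483-3p (median 0.13). LIPI, a membrane-associated phospholipase of testis and Ewing sarcoma, had 899.8 and 825 with miR-483-5p and 967 with miR-483-3p, against 1325 and 1186 in control arrays. All 3 mimic arrays lay below both controls. The means were 863 ± 52.8 with miR-483-5p and 1256 ± 98.1 in control arrays (SD, n = 2 each), a log2 difference of -0.52 ± 0.15 (SE; limma adjusted p = 0.351), the lowest adjusted p of the 31 genes. With miR-483-3p its log2 difference was -0.36 ± 0.18 (SE; adjusted p = 0.828). RBM11, a splicing regulator that begins 5.2 to 9.21 kb from LIPI on chromosome 21 and is read the opposite way, had 2095 and 2608 with miR-483-5p and 2391 with miR-483-3p, against 2456 and 2500.1 in control arrays. Its miR-483-5p arrays lay on either side of the controls, with a log2 difference of -0.083.

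GSTM4, a glutathione transferase, had 288 and 245 with miR-483-5p and 377 with miR-483-3p, against 308 and 309 in control arrays. The miR-483-5p arrays lay below and the miR-483-3p array above the controls. Its log2 differences from control were -0.19 and 0.26, and its second probe set had the opposite signs, 0.091 and -0.17. Since glutathione transferases of the mu class are alike in sequence, the annotation's pairing of these probe sets with GSTM4 alone was not checked. TERT had the highest log2 difference of the 31 genes under miR-483-3p, 0.65 ± 0.28 (SE; limma adjusted p = 0.789), at signals not far above the filter at 27.2. That value was 0.31 with its probe sets averaged, 0.38 with a pseudocount of 100 and 0.96 with a pseudocount of 1. In this probe set its second miR-483-5p array was nearly as high as the miR-483-3p array and its first was at control level. The other TERT probe set, under the filter, had 57.0 and 25.5 with miR-483-5p and 19.5 with miR-483-3p, against 20.2 and 20.0 in control arrays, and was highest in the first miR-483-5p array. ABHD6, a hydrolase of monoacylglycerols, had 925 and 872 with miR-483-5p and 961 with miR-483-3p, against 820.4 and 933 in control arrays, log2 differences of 0.036 and 0.13. Its other probe sets over the filter gave 0.044 and -0.25 for miR-483-5p. The latter had 620.7 and 617.4 with miR-483-5p, against 716.8 and 766.7 in control arrays.

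Between the arms, 17 of the 31 genes were higher with miR-483-5p than with miR-483-3p and 14 lower, with a median log2 difference of 0.055, beside 0.0008 and 50.2% higher over all genes tested. None passed the adjusted threshold (0% of all genes tested, of which 971 had an unadjusted p under 0.05). The gene with an unadjusted p under 0.05 that was higher was SLCO5A1 (1 of 31, 3.23%, against 3.42% of all genes tested), at a log2 difference of 0.71 ± 0.27 (SE; limma adjusted p = 0.713). The one that was lower was GSTM4 (1 of 31, 3.23%, against 3.24%), at -0.46 ± 0.18 (SE; adjusted p = 0.728). Transcription factors were higher with miR-483-5p for 8 of 10 genes and enzymes and RNA-binding proteins lower for all 5 tested, with median log2 differences of 0.12 and -0.16. The lower count was not stable, since RBM11 was at 0.12 without the first miR-483-5p array, TERT at 0.036 with its probe sets averaged and the second GSTM4 probe set at 0.26. Nor was the higher count, since SOX2 fell as low as -0.077 under alternative processing and its next brightest probe set was at -0.13. The single miR-483-3p array enters every one of these values.

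Several genes had probe sets that differed in sign. Of the 77 probe sets, 69 passed the filter, and 33 of these were higher and 36 lower with miR-483-5p, and 21 higher and 48 lower with miR-483-3p. Of the 16 genes with several probe sets over the filter, 7 had all of them on the same side of 0 for miR-483-5p and 8 for miR-483-3p. HOXD13 was such a gene, with all 3 of its probe sets higher with miR-483-5p (log2 differences of 0.42, 0.29 and 0.21), and so were HOXD10 (0.29, 0.14 and 0.52) and BCL11B on the lower side. Beyond the brightest probe set of HOXD13 and of HOXD10, however, the miR-483-5p arrays overlapped the control arrays in each. Those of HOXD13 had 1596.8 and 2072.5 with miR-483-5p, against 1331.3 and 1651.6 in control arrays, and 738.3 and 1098.3, against 681.0 and 879.1. BCL11B had its lowest value in its probe set of lowest signal, which had 45.8 and 88.2 with miR-483-5p and 80.8 with miR-483-3p, against 118 and 126 in control arrays, log2 differences of -0.67 and -0.45. PAPPA, with 11 probe sets, had one with 68.4 and 69.6 with miR-483-5p and 22.1 with miR-483-3p, against 66.8 and 49.7 in control arrays. That probe set was at a log2 difference of -0.73 for miR-483-3p, and the PAPPA probe set of highest signal was lower too, at -0.25.

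The probe sets of JAK1 differed among themselves too. One had 556 and 1542 with miR-483-5p and 1199 with miR-483-3p, against 1401 and 1447 in control arrays. The first miR-483-5p array stood far below the other 4, and the log2 difference of -0.60 rests on it. Another had 2491 and 3509 with miR-483-5p and 3147 with miR-483-3p, against 3101 and 3447 in control arrays, again lowest in the first miR-483-5p array. The probe set of JAK1 with the highest signal, given above, was instead highest in that array. Which part of the transcript each probe set reads was not used here.

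**Figure D3:**
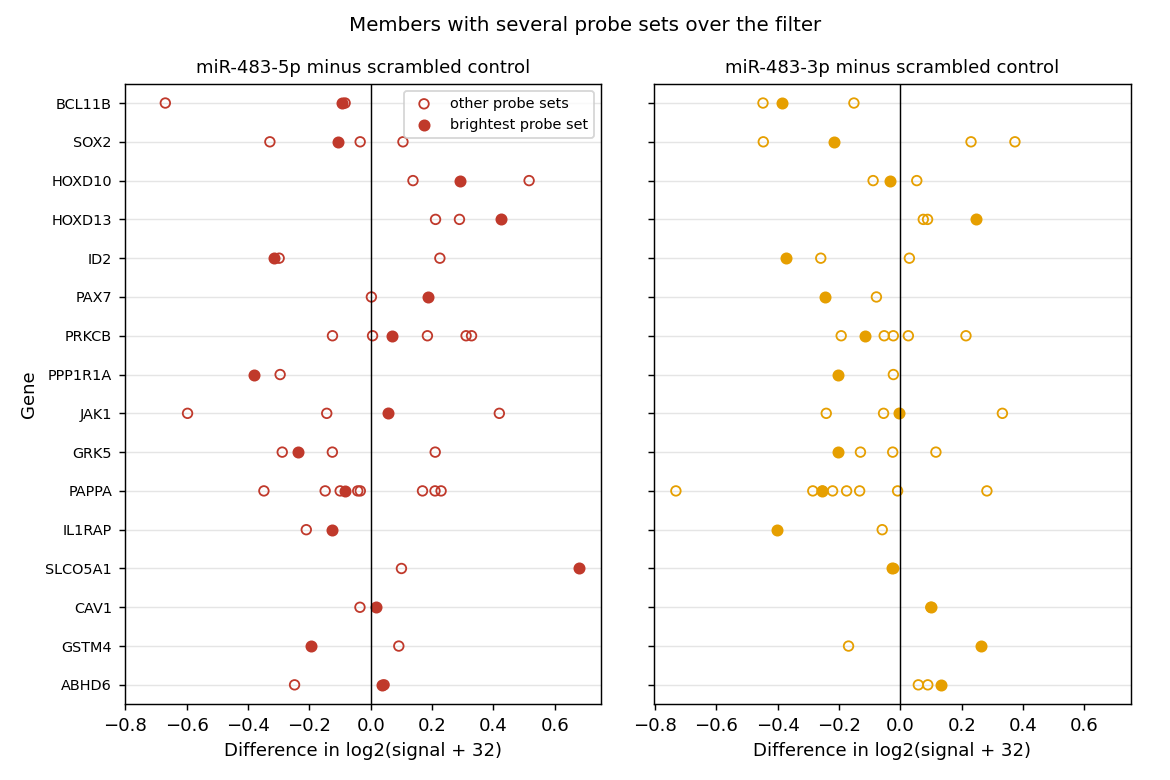
Log2 difference from the scrambled control of every probe set over the filter for the 16 genes with several, miR-483-5p on the left and miR-483-3p on the right, with the brightest probe set filled and the others open. HOXD10 and HOXD13 have all points to the right of 0 on the left panel and BCL11B all to the left on both, while JAK1, SOX2 and PRKCB have points on both sides.

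Single arrays moved the size of the differences of the 7 genes with an unadjusted p under 0.05 for miR-483-5p. Their direction could not change with an array left out, since the miR-483-5p and control arrays of these genes do not overlap. For LIPI the log2 difference ranged from -0.60 to -0.45, for FCGRT from -0.49 to -0.33, for CCK from -0.56 to -0.31 and for PPP1R1A from -0.52 to -0.24. HOXD13 ranged from 0.27 to 0.58 and SLCO5A1 from 0.39 to 0.97. The value of NPY1R nearest 0 came without the second miR-483-5p array, that of PPP1R1A without the second control array, that of SLCO5A1 without the first miR-483-5p array, and those of HOXD13 and CCK with the first control array left out. LIPI and FCGRT moved least.

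**Figure D4:**
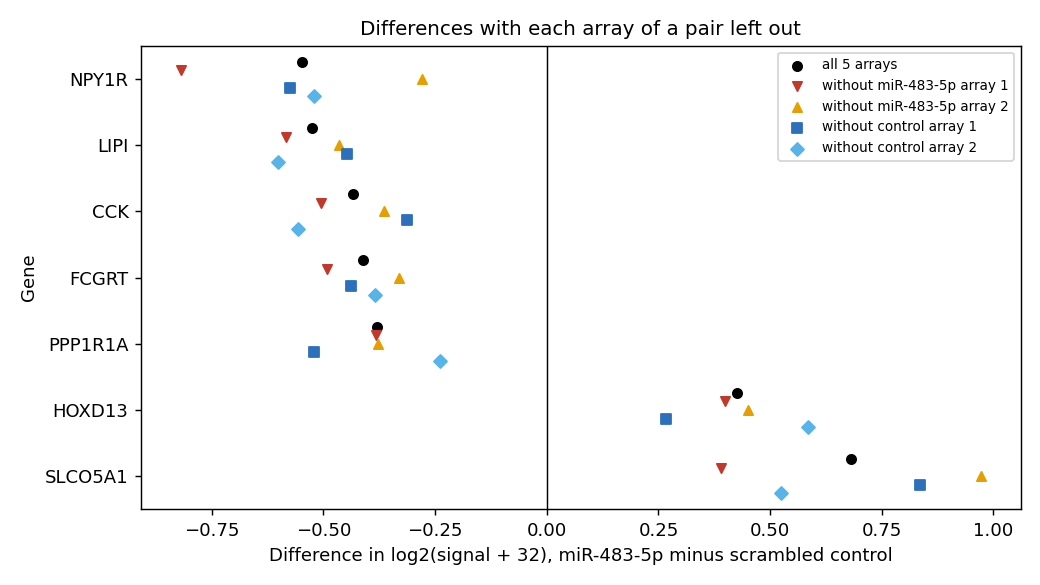
Log2 difference between miR-483-5p and scrambled control in log2(signal + 32) for the 7 genes with an unadjusted p under 0.05, with all 5 arrays (circles) and with each array of a pair left out (other symbols). Since the arrays of these genes do not overlap between the groups, no point could cross 0, and NPY1R and SLCO5A1 spread farthest as a miR-483-5p array is left out.

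The fusion's own partners and its cofactors were also read. Of 16 such genes, 14 were tested and all 14 were bright in the control. With miR-483-5p 10 were higher and 4 lower (median log2 difference 0.14), where 48.5% of all genes tested were higher, with a median of -0.0085. With miR-483-3p 5 were higher and 9 lower (median -0.045, against 49.8% higher and -0.0013 over all genes tested). By the brightest probe set, none passed the adjusted threshold or an unadjusted p under 0.05 for either mimic. When every probe set was tested, single probe sets of some genes had an unadjusted p under 0.05 for miR-483-5p, higher or lower. EWSR1 had 1563 and 1415 with miR-483-5p and 1380.2 with miR-483-3p, against 1268 and 1083 in control arrays. Its miR-483-5p arrays lay above either control, at a log2 difference of 0.34 ± 0.15 (SE; limma adjusted p = 0.496). Its next brightest probe set gave 0.54, with 631 and 554 with miR-483-5p, against 358 and 438 in control arrays. That probe set had an unadjusted p of 0.0176 in the limma fit of every probe set (adjusted p = 0.547), and a dimmer probe set gave 0.069. FLI1 had 629 and 903 with miR-483-5p and 815 with miR-483-3p, against 841 and 1130.4 in control arrays, groups that overlapped, with a log2 difference of -0.36 ± 0.22 (SE; adjusted p = 0.615). Leaving out single arrays gave FLI1 values from -0.61 to -0.11, nearest 0 without the first miR-483-5p array, and its next brightest probe set gave -0.12. The probe sets of EWSR1 and FLI1 were not placed on either side of the fusion junction, so none of these signals is assigned to the fusion transcript. The RNA helicase DHX9, a partner of EWSR1-FLI1, was at a log2 difference of 0.30, with 1822 and 1822 with miR-483-5p and 1709 with miR-483-3p, against 1404 and 1554 in control arrays. The other 2 probe sets of DHX9 went the other way, at -0.52 and -0.21, with 168 and 807 with miR-483-5p and 690.2 with miR-483-3p, against 519 and 594 in control arrays, for the first. Averaging its probe sets put DHX9 at -0.14. The Polycomb ligase RING1 was lower, at -0.33, with 338 and 298 with miR-483-5p and 488 with miR-483-3p, against 433 and 381 in control arrays, and its second probe set was at 0.11.

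A further list of 18 genes reported as induced by the fusion or marking Ewing sarcoma, several of them cell cycle genes, had medians above 0, where those of the 31 lay below. With miR-483-5p 15 of the 18 were higher and 3 lower (median log2 difference 0.23), and with miR-483-3p 12 were higher and 6 lower (median 0.16). Of all genes tested 48.5% and 49.8% were higher. None passed the adjusted threshold for either mimic, and 5 had an unadjusted p under 0.05 for miR-483-5p, all higher (27.8%, against 5.28% of all genes tested). The highest were AURKA, a mitotic kinase, with 1086 and 789 with miR-483-5p and 871 with miR-483-3p, against 612 and 613 in control arrays, and BIRC5, the survivin gene of mitosis and cell survival, with 2869 and 2479 with miR-483-5p and 2469.7 with miR-483-3p, against 1769 and 2059 in control arrays. Their log2 differences for miR-483-5p were 0.57 ± 0.18 and 0.48 ± 0.16 (SE; limma adjusted p = 0.391 and 0.406). For AURKA it came to 0.35 with the first miR-483-5p array left out and 0.79 with the second left out, and its other probe sets gave 0.36 and 0.42. The lowest were MYC, the growth-promoting transcription factor, at -0.20, and NPY5R, another neuropeptide Y receptor, at -0.13. The difference between this list and the 31 genes was not tested.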

How the data were processed

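MHH-ES-1 RNA was hybridised as biotin-labelled cRNA to 5 Affymetrix 3' expression arrays, per the labels' protocols. The authors deposited linear intensity, 1 value a probe set, and each array has a trimmed mean of 150.0, so it was scaled before deposit. GCOS and Partek are named, without version or role, per the submitters' processing notes. The sources used here do not give how probes were summarised, and no detection calls were used. Gene names came from the platform annotation, in which 41091 probe sets have 1 symbol (41037 matched to RefSeq), 1801 several and 11721 none, after 62 control probe sets were left out of 54675.

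Signals were taken as log2(signal + 32), which understates differences of dim genes. Each gene was represented by its probe set with the highest mean, and genes under the 40th percentile, a signal of 27.2, were not tested, which kept 14590. Group means over all 5 arrays were fitted with limma 3.58.1 in R 4.3.3 (2 residual degrees of freedom and 4.89 from the prior), with two-sided tests, Benjamini-Hochberg adjustment over all genes and a threshold of 0.05. The fit was checked on simulated data, with added changes larger than any difference of the 31 genes. That check does not show whether differences of their size could be called. The number of arrays limits the precision. The 34 genes, the other lists and their grouping by role were chosen with earlier results of these data known. All genes of the main list are named, and from the other lists the 2 highest and 2 lowest under miR-483-5p plus EWSR1 and FLI1. First arrays and repeats of the 2 pairs are not said to share a day, and their gaps correlated at 0.17 across genes, so they were not taken as paired. Alternatives were median centring, quantile normalization, other filters and pseudocounts, other uses of a gene's probe sets, a prior that follows intensity, a replicate block and leaving out each paired array. The mature miR-483 sequences and 3' untranslated regions were not analysed here. Plots used matplotlib 3.10.9 in Python 3.11.15.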

Additional observations from a re-analysis of the deposited data

How the results depend on the processing

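No gene of the list reached an adjusted p under 0.05 in any comparison under any alternative, and none with an unadjusted p under 0.05 changed sign. Over all genes, the count called for miR-483-5p against control was 0, but 21 with median centring, 1 with a filter at the 60th percentile, 33 with a pseudocount of 100 and 40 with a prior that follows intensity. For miR-483-3p against control it was 0, but 2, 1 and 1 with median centring, a pseudocount of 100 and that prior, and between the arms 6 with median centring. Taking every probe set on its own gave 2730, 1834 and 1872 probe sets with an unadjusted p under 0.05, against 1553, 949 and 971 genes.

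Among the 31 genes, the count with an unadjusted p under 0.05 for miR-483-5p against control was 7, but 3 with a pseudocount of 1, and 2 to 5 as each paired array was left out. For miR-483-3p against control it was 2, but 1 with median centring, a pseudocount of 1, averaged probe sets or every probe set, 4 with quantile normalization, 6 with a pseudocount of 100 and 5 with the prior by intensity, and 0 to 2 as each paired array was left out. Between the arms it was 2, but 1 with median centring, no filter or every probe set, 0 with a pseudocount of 1 or averaged probe sets, 4 with a pseudocount of 100 or the prior by intensity, and 1 to 3 with arrays left out. Genes of the list higher with miR-483-3p numbered 11 with median centring, against 7. With an array of a pair left out, the lone array is assumed to vary like the other group. The cause of these shifts was not tested. The median log2 difference of the 31 genes ranged from -0.13 to -0.035 for miR-483-5p and from -0.16 to -0.075 for miR-483-3p. Between the arms it ranged from 0.0095 to 0.067. The SD of 0.108 between repeats is that of these genes' median signal in an array, on the log2 scale. It is not the spread of a median difference, so the ranges were not set against it.

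With first arrays against repeats as a replicate block, which leaves 1 residual degree of freedom, no gene was called, and the counts at an unadjusted p under 0.05 among the 31 genes were 7, 4 and 5. In single genes, 12 of 31 changed sign under some alternative for miR-483-5p against control, 9 for miR-483-3p and 7 between the arms, none with a log2 difference over 0.403 in size. Bright genes numbered 19 when every probe set of a gene had to pass, against 30, and the share of all genes under that rule was not counted.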

Other observations

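The list holds pairs of neighbouring genes. LIPI was at a log2 difference of -0.52 and its neighbour RBM11 at -0.083 for miR-483-5p against control, and STEAP1 was at -0.22 and STEAP2 at 0.04. The differences within these pairs of neighbours were not tested. Of the 4 lineage markers tested, KRT18, an epithelial keratin, had the lowest log2 differences, -0.51 for miR-483-5p and -0.44 for miR-483-3p. Its signals were 38.0 and 22.3 with miR-483-5p and 32.8 with miR-483-3p, against 58.9 and 52.5 in control arrays. DES of muscle had the highest, 0.32 and 0.58. Its signals were 43.9 and 24.8 with miR-483-5p and 46.9 with miR-483-3p, against 20.2 and 21.3 in control arrays.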
